A study of Mus musculus with 6 samples.

Results

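The protein-coding Hox genes of the Hoxa, Hoxb, Hoxc and Hoxd clusters were followed in astrocytes, a class of glia in the brain, of mouse cerebellum and mouse neocortex. Every probe set whose annotated symbol was Hoxa, Hoxb, Hoxc or Hoxd followed only by a number was taken. This gave 48 probe sets for 33 genes, out of 45037 non-control probe sets with 18193 gene symbols. The gene table lists 39 such genes, and those without a probe set under a single symbol were not analysed here. RNA was measured on 6 single-colour arrays, with 3 arrays of cerebellar astrocytes and 3 of neocortical astrocytes. The labels name the ICR strain for the neocortical arrays alone, so strain and region cannot be told apart if the cerebellar cells had another background. No genetic change, treatment, age or culture condition is given for any array. The labels tie no array to its own animal or culture. Each p-value therefore rests on array-to-array spread, which may be technical.

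Hox genes encode homeodomain transcription factors that give cells their position along the head-to-tail axis. In each cluster the genes lie in the order in which they are used. Those at the 3′ end, with low paralog numbers, are switched on in the hindbrain, and those at the 5′ end, with high numbers, in the trunk and tail. In the vertebrate embryo the forebrain, the midbrain and the first rhombomere, from which the cerebellum largely arises, form in front of the Hox domains. Hoxa2 has the foremost limit of expression, just behind the first rhombomere, and the Hox genes are kept silent elsewhere by Polycomb proteins. Hox proteins bind DNA together with TALE homeodomain partners of the Pbx and Meis families.

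Nearly all Hox probe sets were dim in astrocytes of both regions. Presence was judged on the deposited signal, in arbitrary units, against 24 control probe sets for the bacterial and phage genes bioB, bioC, bioD, cre and dap, which have no counterpart in the mouse. Their highest value was 120.3, 269.2 and 155.1 on cerebellar arrays 1 to 3, and 71.9, 104.3 and 88.1 on neocortical arrays 1 to 3. Of the 48 Hox probe sets, 2 lay above the highest control of the same array on all 3 cerebellar arrays (4.17%), against 52.4% of all probe sets. On all 3 neocortical arrays it was 1 (2.08%), against 63.2% of all probe sets. No Hox probe set met this in both groups. A total of 17 lay above the controls on no array (35.4%, against 12.8% of all probe sets). In the mixed RNA of a sample, a few cells with much of a transcript and many cells with little of it cannot be told apart.

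**Figure D1:**
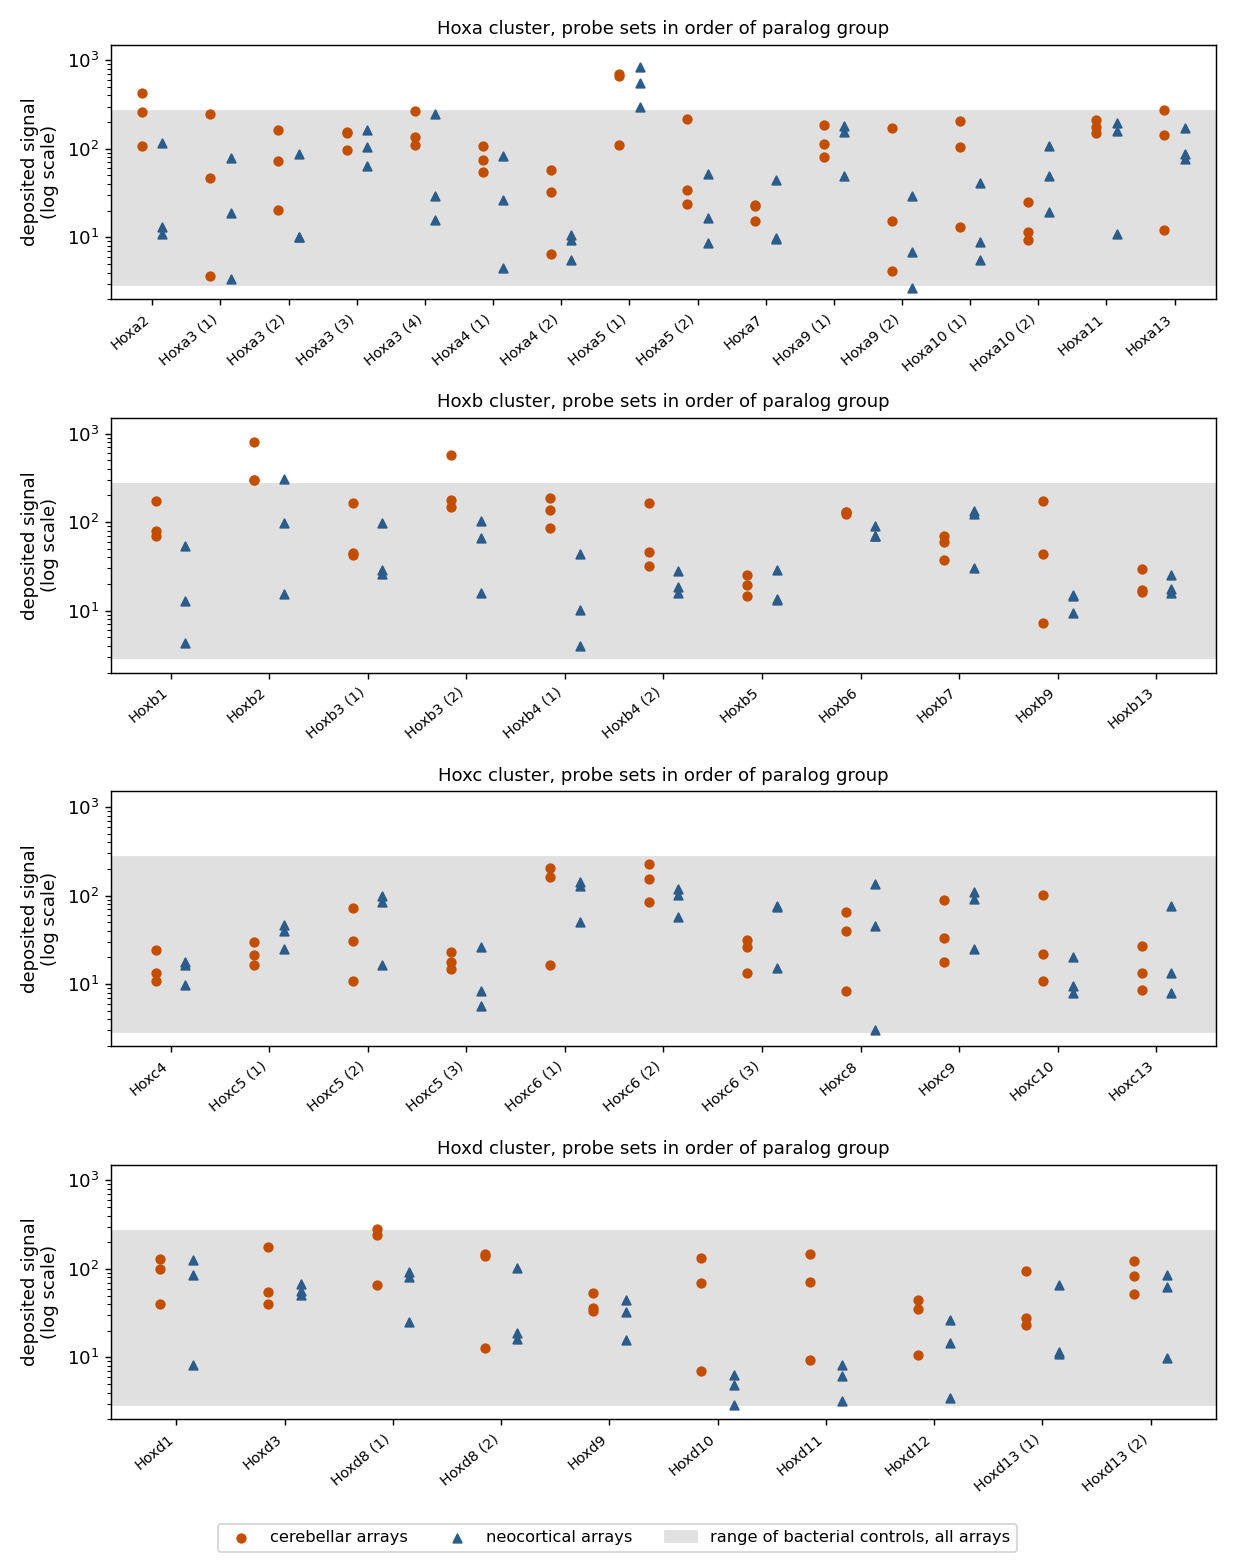
Deposited signal (log scale, arbitrary units) of the 48 Hox probe sets, one panel per cluster, with cerebellar arrays as circles left of neocortical arrays as triangles and several probe sets of a gene numbered in brackets in order of their identifiers. The grey band runs from 2.9 to 269.2, the range of the 24 bacterial controls over all 6 arrays, and holds nearly all of the points; the highest Hox value was 848.9.

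On single arrays the number of Hox probe sets above the controls was 16, 2 and 9 of 48 on cerebellar arrays 1 to 3. It was 17, 6 and 9 on neocortical arrays 1 to 3. Cerebellar array 2 had the highest limit, set by 1 control probe set, the next one on that array being 128.7. Over all arrays of a group, 18.75% of the Hox values were above the limit on cerebellar arrays and 22.2% on neocortical arrays, against 63.5% and 73.7% over all probe sets. The median deposited Hox signal was 59.0, 41.5 and 71.55 on cerebellar arrays 1 to 3, against 29.85, 25.45 and 26.8 on neocortical arrays 1 to 3, so the groups did not overlap. The mean signal of the controls moved the same way. Their median did so on cerebellar arrays 1 and 3, but not on cerebellar array 2. The control mean was 47.7, 37.0 and 46.6 on cerebellar arrays 1 to 3, against 25.1, 30.4 and 27.5 on neocortical arrays 1 to 3. The control median was 35.9, 12.45 and 25.85 against 12.5, 20.65 and 13.35, so the groups overlapped. After quantile normalization the Hox median was 57.1, 42.7 and 59.0 on cerebellar arrays, against 32.25, 31.2 and 26.4 on neocortical arrays. The part of background in the higher Hox medians was not tested.

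Hoxb2, which acts in the hindbrain and in the cranial nerves that leave it, was 1 of the 2 probe sets above the controls on all cerebellar arrays. Its signal was 296.0, 803.4 and 297.6 on cerebellar arrays 1 to 3, against 15.4, 98.0 and 307.6 on neocortical arrays 1 to 3. Cerebellar array 2 was the highest, and neocortical array 3 exceeded the other cerebellar arrays, so the groups overlapped. On neocortical array 3 the value was above the controls, and on the other neocortical arrays it was not. Hoxb2 averaged 465.7 ± 292 in cerebellar cells and 140.3 ± 151 in neocortical cells (SD, n = 3 arrays each). For tests, signals were quantile normalized, raised to a floor of 62.2 where lower, and fitted on the log2 scale with limma. The log2 difference of Hoxb2, cerebellar minus neocortical, was 1.58 ± 0.628 (SE), with an adjusted p of 0.149 in the limma fit (unadjusted p = 0.0327). The difference was thus not past the adjusted threshold of 0.05. Over the 25 settings in which it was tested, its adjusted p ran from 0.0751 to 0.603. The difference was 1.05 without neocortical replicate 1, 2.21 without neocortical replicate 3 and 0.82 where the floor was the 40th percentile of signal.

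Hoxb3, a hindbrain gene that lies beside Hoxb2, was the other. Its probe set 1456229_at read 148.3, 574.5 and 178.6 on cerebellar arrays 1 to 3, against 15.8, 66.7 and 102.2 on neocortical arrays 1 to 3. Every cerebellar array was above every neocortical array, and cerebellar array 2 was again the highest. The means were 300.5 ± 238 in cerebellar cells and 61.57 ± 43.4 in neocortical cells (SD, n = 3 arrays each). This probe set was too dim for the main fit, which kept only the 60% of probe sets with the highest mean over the 6 arrays. In the fit without that filter its log2 difference was 1.54 ± 0.60 (SE), with a limma adjusted p of 0.282. It was 0.91 without cerebellar replicate 2, and 0.52 where the floor was the 40th percentile of signal. The second Hoxb3 probe set, 1427605_at, read 42.7, 163.0 and 45.3 on cerebellar arrays against 97.3, 25.9 and 29.1 on neocortical arrays, and its groups overlapped. It was above the controls on neocortical array 1 alone, so the 2 probe sets of this gene differed.

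**Figure D2:**
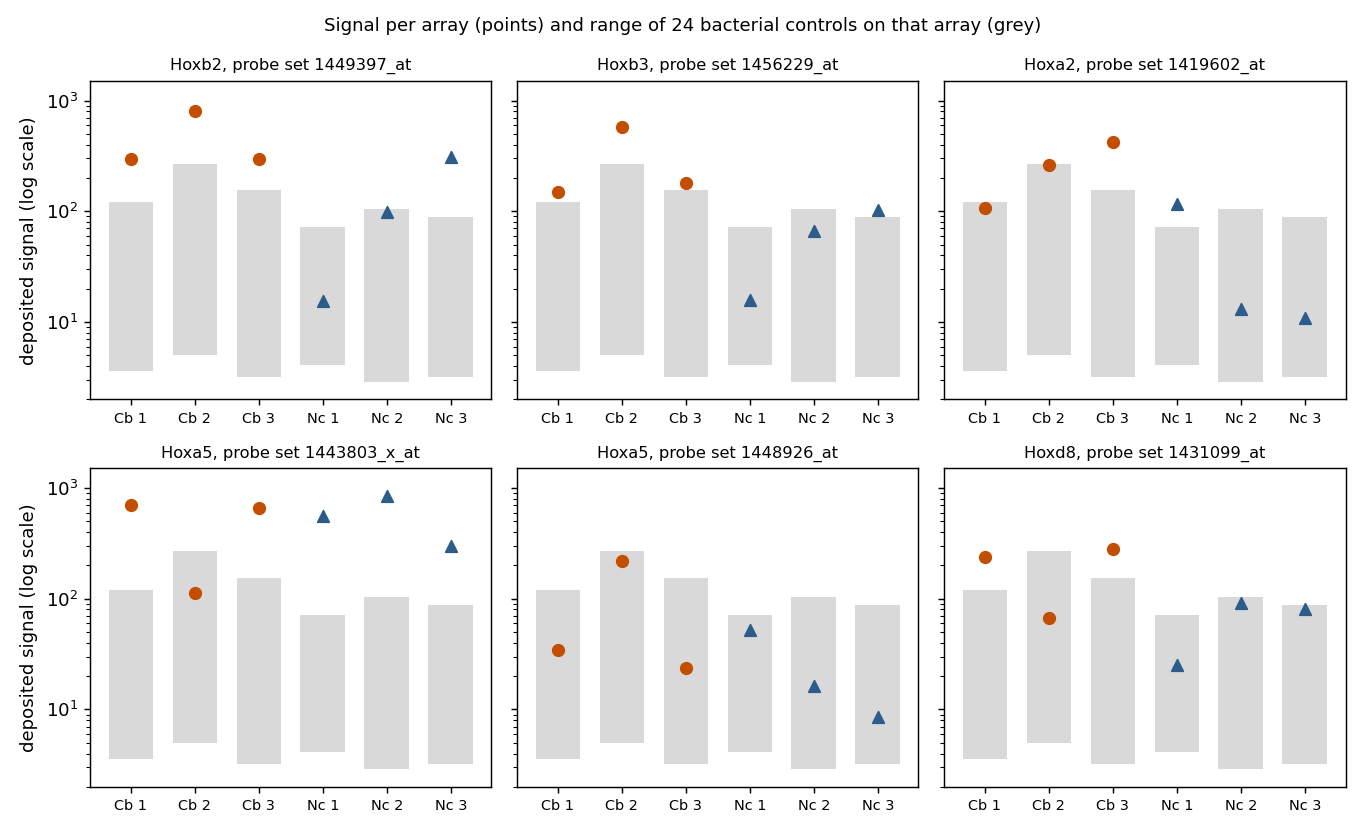
Deposited signal (log scale, arbitrary units) of 6 Hox probe sets on the cerebellar (Cb, circles) and neocortical (Nc, triangles) arrays, over grey bars for the range of the 24 bacterial controls on that array. Hoxb2 and Hoxb3 lie above the bar on all 3 cerebellar arrays and on neocortical array 3, Hoxa5 probe set 1443803_x_at on 5 of the 6 arrays, and Hoxa5 probe set 1448926_at on none.

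The brightest values of the Hoxa cluster came from a single probe set of Hoxa5, a gene of the neck, spinal cord and lung. Probe set 1443803_x_at read 694.7, 111.4 and 658.8 on cerebellar arrays, against 554.4, 848.9 and 298.2 on neocortical arrays. It was the 1 Hox probe set above the controls on all neocortical arrays, and it fell inside their range on cerebellar array 2. Its log2 difference of -0.61 ± 0.684 (SE) was smaller than its error (limma adjusted p = 0.623). Without cerebellar replicate 2 the difference turned to 0.25. The x in the identifier marks a probe set with probes that may also match other transcripts. The other Hoxa5 probe set, 1448926_at, read 34.3, 218.6 and 23.8 on cerebellar arrays against 51.7, 16.4 and 8.6 on neocortical arrays, and was above the controls on no array. Signals of different probe sets have no common scale, so the 2 levels are not set against each other.

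Hoxa2, which sets the identity of the front part of the hindbrain and of the second branchial arch, was described after its values were seen. It read 107.9, 262.4 and 423.8 on cerebellar arrays, against 117.4, 13.2 and 10.8 on neocortical arrays. It was above the controls on cerebellar array 3 and on neocortical array 1, where the value also exceeded that of cerebellar array 1. The log2 difference without the filter was 1.45 ± 0.575 (SE), with a limma adjusted p of 0.291.

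Groups were apart for 5 Hox probe sets. They included 3 of the 11 in the Hoxb cluster, close to the share of 24.1% over all probe sets. Of the 48 Hox probe sets, 4 had every cerebellar array above every neocortical array in normalized signal, against 12.3% of all probe sets, and 1 the reverse, against 11.8%. The share in either direction was 10.4% for Hox and 24.1% for all probe sets. The 4 were Hoxb1, Hoxb3, Hoxb4 and Hoxd11. Hoxb1, the gene of the fourth rhombomere, read 69.7, 79.6 and 174.8 on cerebellar arrays, against 12.9, 54.1 and 4.3 on neocortical arrays. Hoxb1 was above the controls on cerebellar array 3 alone. Hoxb4, whose expression begins in the hindmost rhombomeres, read 185.7, 136.4 and 85.6 on cerebellar arrays by probe set 1451761_at, against 4.0, 10.1 and 43.8 on neocortical arrays. All neocortical values of that Hoxb4 probe set were inside the control range, and of the cerebellar values only that of array 1 was above it. Hoxd11, a gene of the trunk, limb and kidney, read 148.3, 9.4 and 71.5 on cerebellar arrays, against 3.2, 6.1 and 8.2 on neocortical arrays. It was above the controls on cerebellar array 1 alone, and the gap between the groups, from 9.4 to 8.2, lay far below the floor. The probe set that ran the other way belonged to Hoxc5 and never exceeded 46.5. In the signal as deposited the counts were 7 and 0, with Hoxd10, Hoxb6 and the second Hoxb4 probe set added to the higher ones.

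Promoters of 3 of these 3′ genes are shown to set their sequence beside the signals; Hoxb2 and Hoxb3 are named only. The sequences come from the RefSeq table on GRCm38.p6, on the strand of the gene, from 250 bases before to 50 bases after its start. Capitals mark a match to TGATNNAT, the site of a Pbx and Hox protein pair, on either strand.
Hoxa2, chr6:52164782-52165081, minus strand: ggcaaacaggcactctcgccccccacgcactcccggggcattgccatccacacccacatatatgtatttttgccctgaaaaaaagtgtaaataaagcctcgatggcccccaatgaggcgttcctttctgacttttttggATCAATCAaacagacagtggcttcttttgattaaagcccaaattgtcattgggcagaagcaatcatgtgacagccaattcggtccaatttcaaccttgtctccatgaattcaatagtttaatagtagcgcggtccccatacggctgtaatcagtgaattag
Hoxb1, chr11:96365508-96365807, plus strand: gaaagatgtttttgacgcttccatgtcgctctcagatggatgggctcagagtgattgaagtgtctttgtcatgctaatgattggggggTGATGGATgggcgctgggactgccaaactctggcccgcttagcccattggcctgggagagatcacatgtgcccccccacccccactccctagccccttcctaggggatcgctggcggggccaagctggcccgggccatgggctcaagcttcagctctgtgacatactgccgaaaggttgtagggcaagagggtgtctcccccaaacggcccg
Hoxb4, chr11:96318017-96318316, plus strand: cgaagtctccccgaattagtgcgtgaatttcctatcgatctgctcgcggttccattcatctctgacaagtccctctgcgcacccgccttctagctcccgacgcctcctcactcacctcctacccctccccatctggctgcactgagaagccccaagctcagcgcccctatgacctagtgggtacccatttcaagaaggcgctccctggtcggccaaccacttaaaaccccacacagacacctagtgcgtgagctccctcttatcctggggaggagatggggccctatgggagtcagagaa
The table held 21 promoters of 19 of the 33 Hox genes. TGATNNAT matched 3 of the 21 (14.3%), those of Hoxa2, Hoxb1 and 1 of 2 for Hoxd11, against 8.85% of all 32851 promoters. Of the 3 promoters printed, those of Hoxa2 and Hoxb1 each held 1 match and that of Hoxb4 none. The homeodomain core TAATNA, which may overlap the first motif, matched 5 of the 21 (23.8%), against 26.5% of all. The Egr motif GCGTGGGCG matched none of the 21 and 0.612% of all. A match is a description of letters in these windows.

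In a test over all probe sets, no Hox probe set passed. The main limma fit covered 27022 probe sets, of which 2864 passed (10.6%, or 4.88% higher and 5.72% lower in cerebellar astrocytes). Signals scaled by the median in place of quantiles gave 819 higher and 2105 lower. As for the Hox genes, only 2 of the 48 Hox probe sets were bright enough to enter it, against 60% of all probe sets. These were Hoxb2 and Hoxa5 1443803_x_at, and 0 passed, with 1, Hoxb2, at an unadjusted p under 0.05 and higher (26.1% of all probe sets tested, 13.1% higher and 12.9% lower). With no filter all 48 were tested and 0 passed, against 2.84% of the 45037 probe sets in the same fit (1.28% higher and 1.56% lower). At an unadjusted p under 0.05 there were 2 higher and 0 lower, against 8.96% and 8.78% of all (17.7% together). These 2, chosen after their values were seen, were Hoxb6, with a log2 difference of 0.53 ± 0.191 (SE, limma adjusted p = 0.248), and Hoxb4 1451761_at, with 0.95 ± 0.357 (SE, limma adjusted p = 0.267). Hoxb6 read 129.7, 131.7 and 123.1 on cerebellar arrays and 70.2, 90.1 and 70.6 on neocortical arrays, all within the control range but for cerebellar array 1. The SE of the 48 log2 differences had a median of 0.367 and ran from 0.014, where all arrays lay at the floor, to 0.886, with 3 arrays in each group.

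By direction, 29 of the 48 Hox probe sets had a positive log2 difference (60.4%), 10 a negative one (20.8%) and 9 none, because all 6 arrays lay at the floor. Over all probe sets the shares were 48.9% positive and 46.5% negative, and over the 18015 dim probe sets that the filter removed they were 45.5% and 42.9%. Without cerebellar replicate 2 the Hox counts were 22 positive and 15 negative. The median Hox difference was 0.18, against 0.0 over all probe sets. The 16 probe sets of paralog groups 1 to 4, the hindbrain genes, had 13 positive differences and 1 negative one, with a median of 0.45. The 15 of groups 5 to 8 had 6 and 5, with a median of 0.0, and the 17 of groups 9 to 13, the genes of the hind trunk, had 10 and 4, with a median of 0.16. These classes were formed after the values were seen and the differences between them were not tested.

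**Figure D3:**
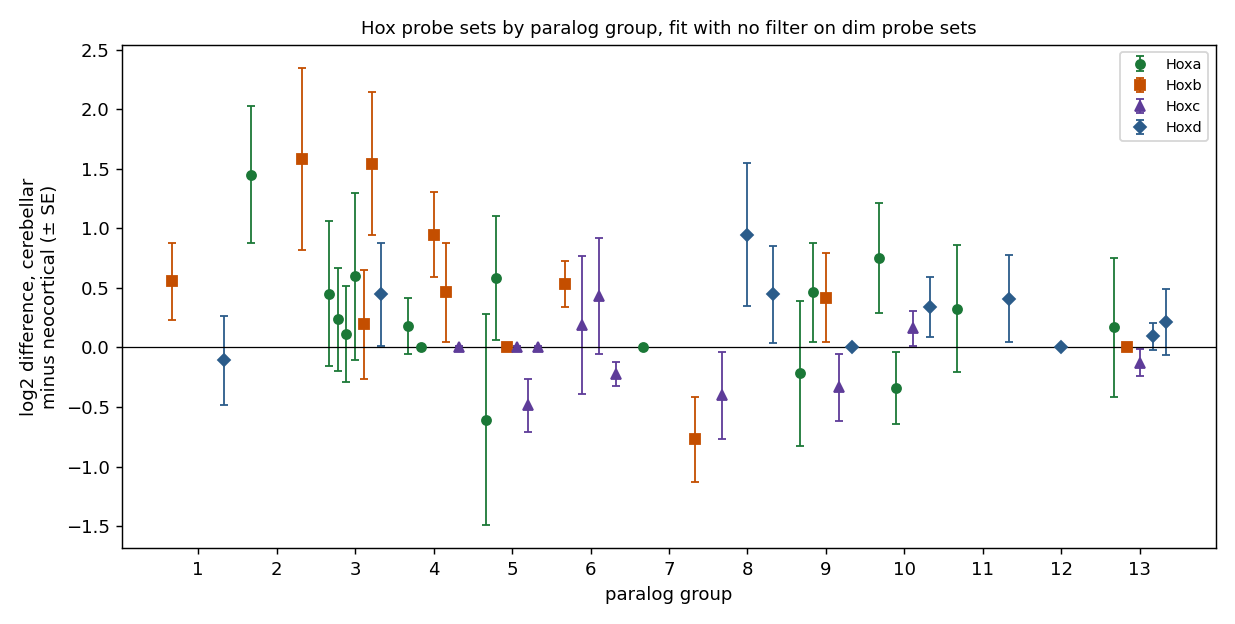
Log2 difference in signal, cerebellar minus neocortical, of the 48 Hox probe sets in the fit with no filter, against paralog group, with the cluster as colour and symbol and bars of ± 1 SE. Hoxb2 (1.58), Hoxb3 (1.54) and Hoxa2 (1.45) lie highest, none passed the test, and 9 points at 0.0 had all arrays at the floor.

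The Hoxc and Hoxd clusters had no probe set above the controls on all arrays of either group. The 11 probe sets of Hoxc, for 7 genes that act mainly in the trunk and spinal cord, had 3 positive and 5 negative differences. They reached at most 226.2 on cerebellar and 142.0 on neocortical arrays. The highest Hoxc probe set by mean signal, Hoxc6 1427362_x_at, read 83.6, 226.2 and 152.0 on cerebellar arrays against 100.8, 119.2 and 57.4 on neocortical arrays. The 10 probe sets of Hoxd, whose 5′ genes pattern limbs and the hind trunk, reached 279.7 on cerebellar and 126.1 on neocortical arrays. Hoxd8 1431099_at had the highest mean of that cluster, with 240.2, 66.3 and 279.7 on cerebellar arrays against 25.4, 92.3 and 80.4 on neocortical arrays. Its groups overlapped through cerebellar array 2, and its log2 difference was 0.95 ± 0.602 (SE, limma adjusted p = 0.504, no filter). Hoxd8 was above the controls on cerebellar arrays 1 and 3 and on no neocortical array, and its second probe set on 1 array of each group. The 9 probe sets at the floor on all arrays were those of Hoxa7, Hoxb5, Hoxb13, Hoxc4, Hoxd9 and Hoxd12, 2 of Hoxc5 and 1 of Hoxa4, with no value above 58.0.

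Other homeobox families were read in the same way. On all arrays of at least 1 group, this was so for 3 of 48 Hox probe sets (6.25%), against 64% of all probe sets. It was so for 3 of 16 probe sets of related homeobox genes outside the clusters, such as Gsx, Cdx and Evx, and for 4 of 21 of the LIM homeobox family. For the engrailed, Gbx2 and Pax list it was 11 of 17, and for the iroquois family 4 of 6. The list of TALE genes, which holds Hox partners and the repressors Tgif1 and Tgif2, had 21 of 23. These shares were not tested against each other, and the lists were drawn up with earlier results of these arrays known.

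**Figure D4:**
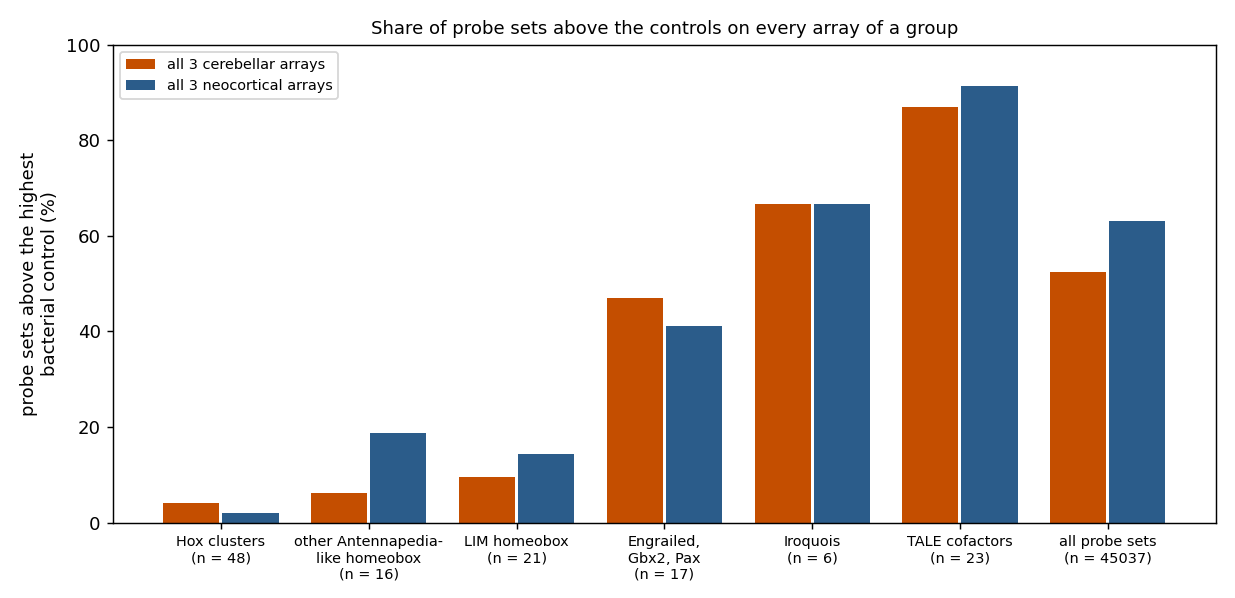
Percentage of probe sets above the highest bacterial control on all 3 cerebellar arrays (left bars) and all 3 neocortical arrays (right bars), for the Hox clusters, 5 other lists and all probe sets. The Hox bars stand at 4.17% and 2.08%, against 52.4% and 63.2% for all probe sets.

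The list of Hox regulators was broad, and not all of its genes switch Hox genes on. Of its 21 measured genes, 11 were above the controls on all cerebellar arrays and 11 on all neocortical arrays. The other 10 were above them on all arrays of neither group. Each gene was represented by its probe set with the highest mean, and values are normalized signal. Of 21 measured Hox regulators, 12 were tested, of which 4 were higher in cerebellar astrocytes, 0 were lower and 8 did not pass, against 10.6% called of all probe sets tested. The 4 fell to 1 with no filter and to 2 with no variance trend or without cerebellar replicate 2, neocortical replicate 1 or neocortical replicate 2. Scaled by the median, 3 were higher and 2 lower. With the replicate block Crabp1, a retinoic acid binding protein, also passed as lower (limma adjusted p = 0.0128). Gbx2, the homeobox gene of the front of the hindbrain, averaged 1256 ± 167 in cerebellar cells and 360.6 ± 45.5 in neocortical cells (SD, n = 3 arrays each), with an adjusted p of 0.000823 in limma. Egr2, or Krox20, which turns on Hoxa2 and Hoxb2 in the hindbrain, averaged 7303 ± 1430 in cerebellar cells and 2795 ± 774 in neocortical cells (SD, n = 3 arrays each), with an adjusted p of 0.00386 in limma. Cyp26b1, which breaks down retinoic acid, and Rxra, a receptor partner in retinoic acid signalling, were higher by 1.26 ± 0.313 and 0.65 ± 0.163 on the log2 scale (SE). Rxra passed on only 1 of its 2 tested probe sets. The caudal genes Cdx1, Cdx2 and Cdx4, which act on Hox genes in the trunk, were above the controls on all arrays of neither group.

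Of the 10 TALE genes, 2 were higher, 2 were lower and 6 did not pass, against 10.6% called of all probe sets tested. With probe sets left out whose identifier has a suffix, 0 were higher and 0 lower. Each gene was read at its probe set with the highest mean, which has a suffix for all of these 4. Those counts were thus fixed in advance and cannot show whether the differences hold in other probe sets. The 2 lower became 1 with no filter, with no variance trend, and without cerebellar replicate 3 or any 1 neocortical array. Meis1 was higher, with a log2 difference of 2.06 ± 0.152, and so was Pbx3, with 1.37 ± 0.163, while Meis2 was lower, with -2.29 ± 0.147 (SE). Tgif1, a TALE repressor, was lower by 0.53 ± 0.122 on the log2 scale (difference -0.53). Only 2 of 3 Meis1 probe sets passed, against 4 of 4 for Meis2 and 2 of 2 for Pbx3. Of 28 Polycomb genes, which hold Hox genes silent, Cbx6 was higher (0.68 ± 0.145), Yaf2 was lower (-0.49 ± 0.0976) and 26 did not pass, with log2 differences and SE as before. All 28 were above the controls on every array. A list of 16 chromatin genes held Trithorax group members, which keep Hox genes active, histone demethylases, the insulator protein Ctcf and the histone deacetylase Hdac3. In it Mllt3 was higher (0.70 ± 0.169) and 15 did not pass. Its brightest genes, Dpy30, a subunit of Trithorax methyltransferase complexes, and Hdac3, had differences of -0.21 and -0.10. Both the Polycomb and the chromatin list had a smaller share called than the 10.6% over all probe sets tested. With the replicate block Kdm6a, a histone demethylase, also passed as higher (limma adjusted p = 0.015). Scaled by the median, neither Cbx6 nor Mllt3 passed, and Cbx6, Yaf2 and Mllt3 were each lost without some single arrays. Of the tested probe sets, 1 of 2 passed for Cbx6, 2 of 2 for Yaf2 and 2 of 3 for Mllt3. The median log2 differences were 0.34 for regulators, 0.16 for TALE genes, 0.03 for Polycomb and 0.24 for the chromatin list. Over all probe sets tested the median was 0.01.

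The genes that flank the clusters were mostly above the controls. Of the 24 genes nearest to the clusters, 3 on each side, 17 were above the controls on all cerebellar arrays and 22 on all neocortical arrays. Of the 19 tested, 2 were lower in cerebellar astrocytes and none was higher, a share close to the 10.6% called over all probe sets tested. With no filter, with no variance trend or without any 1 neocortical array 0 were lower, and without cerebellar replicate 1 or 3 it was 1. Snx10, near Hoxa, had a log2 difference of -0.66 ± 0.157 and Nfe2l2, near Hoxd, of -0.51 ± 0.105 (SE). Evx1 and Evx2, homeobox genes at the 5′ ends of Hoxa and Hoxd, had normalized means of 76.87 ± 48.5 and 140.9 ± 86.7 in cerebellar astrocytes. In neocortical astrocytes these were 96.04 ± 67.2 and 233.9 ± 18.1 (SD, n = 3 each). The median difference of the 19 was -0.03.

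The identity of the samples was checked on markers. All 12 astrocyte markers were above the controls on all 6 arrays, with Aqp4 higher in cerebellar astrocytes and Slc1a3, Aldoc, Glul and Fabp7 lower. Slc1a3 passed on only 1 of its 6 tested probe sets, against 3 of 3 for Aqp4. Aldoc and Glul passed on 2 of 2 and Fabp7 on 1 of 1. Of 6 oligodendrocyte lineage markers tested, Mbp was higher (log2 difference 2.65 ± 0.514) and Olig1 and Olig2 were lower (-1.74 ± 0.206 and -2.58 ± 0.253, SE). Mbp passed on 3 of its 5 tested probe sets. Of 4 neuron, 3 vascular, and 5 ependymal and choroid plexus markers tested, 1 each was lower, namely Syt1, Kdr and Otx2. Otx2 is also on the forebrain patterning list, and the other 4 ependymal and choroid plexus markers tested did not pass. On all cerebellar and all neocortical arrays, 4 and 4 of 8 neuron markers and 6 and 5 of 8 oligodendrocyte markers were above the controls. It was 2 and 4 of 7 vascular markers and 3 and 5 of 6 ependymal and choroid plexus markers. Of 8 skeletal muscle markers 3 were tested. Only 1, Myh8, passed, as higher, and the other 2 did not. Myh8 had a normalized mean of 6377 ± 1735 in cerebellar cells and 22.18 ± 24.4 in neocortical cells (SD, n = 3 arrays each). It was above the controls on no neocortical array. Of the 8 muscle markers, 3 were above the controls on all cerebellar arrays and 2 on all neocortical arrays. No blood cell marker passed, with 1 tested. With the replicate block Gfap and Slc1a2 also passed as lower and the muscle gene Des as higher (limma adjusted p = 0.00406, 0.0406 and 0.0246). Of 8 forebrain patterning genes, 0 were above them on all cerebellar arrays and 8 on all neocortical arrays, and of 11 midbrain-hindbrain genes 8 and 6. In the fit 7 of the 8 forebrain genes were lower, and the other, Emx1, passed with the replicate block (limma adjusted p = 0.0448). Of 10 fibroblast and meningeal markers, all were above the controls on every array and 1, Twist1, was higher in cerebellar astrocytes. With the replicate block Col1a1 and Foxc1 also passed as higher (limma adjusted p = 0.00597 and 0.0300). Their summed normalized signal ran from 55678 to 235409 on cerebellar and from 59167 to 98853 on neocortical arrays. It was highest on cerebellar array 3, the array on which Hoxa2 was highest, and not on array 2, where Hoxb2 and Hoxb3 were highest. Of 7 microglia and macrophage markers 0 passed in the limma fit, with 0 at an unadjusted p under 0.05, and the weakest, Itgam, was above the controls on 2 cerebellar and 3 neocortical arrays. Their summed signal ran from 4800 to 26173 on cerebellar arrays, highest on array 2, and from 8494 to 23717 on neocortical arrays. The part of these cells in the Hox signals was not tested.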

How the data were processed

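The authors deposited an intensity for each probe set of each array, in linear units. How it was summarised was not given in the sources used here. All arrays had a mean of 1500 once the outer 2% of values on either side were trimmed, and medians of 284.7 to 361.2. Values of 45037 probe sets, controls excluded, were quantile normalized and raised to a floor of 62.2 (the 20th percentile), and log2 was taken. Those whose mean reached the 40th percentile (169.3) entered limma 3.58.1 in R 4.3.3 (variance trend, two-sided, Benjamini-Hochberg over all tested, threshold 0.05). The script was tested on simulated data. Presence used the deposited values. Symbols came from the platform annotation, updated by Entrez ID. Of the Hox symbols 0 changed.

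Both groups number their arrays 1 to 3. After group means were removed, cerebellar and neocortical arrays with equal numbers correlated at 0.18, 0.188 and 0.101. Those with unequal numbers ran from -0.182 to 0.0225. The numbers may thus pair the arrays, as a hint from the data and not the labels. The main fit had no replicate block. The members and lists were chosen with earlier results of these data known. The rule for named genes took every Hox probe set that passed, every one above the controls on all arrays of a group, and the one with the highest mean in each cluster. In other lists it took up to 4 that passed and, where fewer than 2 passed, the 2 with the highest signal. Genes said to be picked with their values in view fall outside it. Array number limits the precision.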

Additional observations from a re-analysis of the deposited data

How the results depend on the processing

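No Hox probe set passed in the main fit, which tested 2, or in the fit with no filter, which tested 48. The other settings tested 2 to 4, the replicate block among them (0 passed), and the filter at the 60th percentile left 0 to test. Of 9 combinations with no filter, added after seeing the data, 2 gave a call, each in the lower direction and above the controls on neocortical array 1 alone. Hoxc6 1427454_at passed without neocortical replicate 2 (log2 difference -0.33, limma adjusted p = 0.0479), where 0.553% of the 45037 probe sets passed. Hoxc5 1450832_at passed without neocortical replicate 3 (-0.73, limma adjusted p = 0.0403), where 0.364% passed. Both had all cerebellar arrays at the floor, and the Hox count ran from 0 to 1 of 48. With the replicate block and no filter the lowest Hox adjusted p was 0.258 (main fit with the block, 0.112), and with the values as deposited and no filter 0.0557. The block changed no Hox call. It added those of other genes named beside their lists. The Hox probe sets above the controls on cerebellar arrays numbered 4 with the 95th percentile of the controls as the limit, 1 with the highest control over all arrays, 6 when 2 of 3 arrays sufficed, and 2 to 6 with 1 array left out. Without cerebellar replicate 2 there were 6. On neocortical arrays the counts were 2, 1, 9 and 2 to 5, and 0 without probe sets whose identifier has a suffix. Groups did not overlap for 7 higher and 0 lower Hox probe sets as deposited. The log2 difference of Hoxa5 1443803_x_at ran from -1.11 to 0.25 with 1 array left out, and turned to 0.25 without cerebellar replicate 2. Over all probe sets the calls higher and lower were 1319 and 1545. They were 819 and 2105 scaled by the median, 577 and 704 with no filter, 676 and 914 with no variance trend, 547 to 1230 and 654 to 1554 with 1 array left out. Of the regulators, TALE genes, chromatin genes and neighbours, 8 were higher and 5 lower. The counts were 5 and 8 scaled by the median, 4 and 2 with no filter, and 4 and 1 with no variance trend. Without suffixed probe sets they were 5 and 2, and with the filter at the 60th percentile 8 were lower. With 1 array left out they were 4 to 8 and 1 to 5. A gene read at a probe set with a suffix drops out of the counts without such probe sets. The causes were not tested.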

Other observations

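Probe sets that name Hox transcripts but are no single protein-coding gene were as dim as the members. The 5 probe sets for the antisense transcripts Hoxd3os1, Hoxb5os and Hoxa11os were above the controls on all arrays of neither group. Hoxb5os read 144.8, 35.7 and 44.8 on cerebellar arrays and 64.5, 117.9 and 209.3 on neocortical arrays, and was above the controls on 1 cerebellar and 2 neocortical arrays. A further 3 probe sets carry several symbols and name no gene here, and they too were above the controls on all arrays of neither group.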
